A study of Mus musculus with 15 samples.

Results

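Cisplatin, a platinum compound that crosslinks DNA, was set against its saline vehicle in mouse liver 1 day after a single intraperitoneal injection. The tested genes were those with at least 1 FPKM (fragments per kilobase of gene, scaled to library size) in at least 5 of the 10 libraries of this comparison, which left 10330 of the 21878 genes in the table. All mice were 8-week-old C57BL/6J males assigned to treatment at random. The cisplatin group held 5 livers from mice given 10 mg/kg, dissolved at 1 mg/mL in 0.9% saline. The saline group held 5 livers from mice given saline alone. A further 5 livers, from mice given 10 mg/kg of the anthracycline doxorubicin at 2 mg/mL in sterile water, stand beside them only where the drugs are compared. RNA was selected for its poly(A) tail. The labels number the samples of a group without naming the mice, so p-values measure the spread between these samples. Whole liver was sequenced, and fewer cells of a type cannot be told apart from less RNA per cell. The labels do not give the hour of sampling or the food intake of the mice.

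Platinum adducts block RNA polymerase on the transcribed strand, and the cell answers through p53, repair and, at high load, cell death. The liver is not the organ best known for cisplatin injury, which is the kidney, but it takes up the drug, conjugates it with glutathione and makes most plasma proteins. Its output also follows feeding, hormones and the time of day. Targets of p53, folding genes of the endoplasmic reticulum and genes of cholesterol synthesis are set aside here, and the rest of the response is described by its lists and, beyond them, by genes that none of 48 lists holds.

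A gene was called higher or lower at an adjusted p of at most 0.05 in limma, a linear model across all tested genes with Benjamini-Hochberg adjustment, on log2(FPKM + 1). Of the 10330 genes, 504 were called higher (4.88%) and 408 lower (3.95%) after cisplatin. By at least 1 on the log2 scale, 67 were higher and 66 lower. The median change over all tested genes was -0.01. In 998 genes (9.66%) the 5 cisplatin values did not overlap the 5 saline values, 545 of them higher and 453 lower.

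The lists set aside account for 85 of the 504 higher genes and 6 of the 408 lower ones. Their shares exceeded the 4.88% of all tested genes that were higher. Of p53 targets 24 of 78 tested were higher (30.8%), and of cholesterol synthesis genes 25 of 36 (69.4%). Of endoplasmic reticulum folding genes 36 of 142 were higher (25.4%), or 23 without cisplatin 2 and 22 without cisplatin 3. For scale, Phlda3, a p53-induced inhibitor of AKT signalling, changed by 3.28 ± 0.24 (SE, adjusted p = 8.7e-06). Calr, the lumenal chaperone calreticulin, changed by 1.21 ± 0.11 (SE, adjusted p = 4.33e-05), and Lss, lanosterol synthase, by 1.88 ± 0.19 (SE, adjusted p = 0.000112). Outside these lists 419 genes were higher and 402 lower. No list of any kind held 291 of the higher genes and 312 of the lower, which is 57.7% and 76.5% of them, where 81.1% of tested genes stood in no list.

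**Figure D1:**
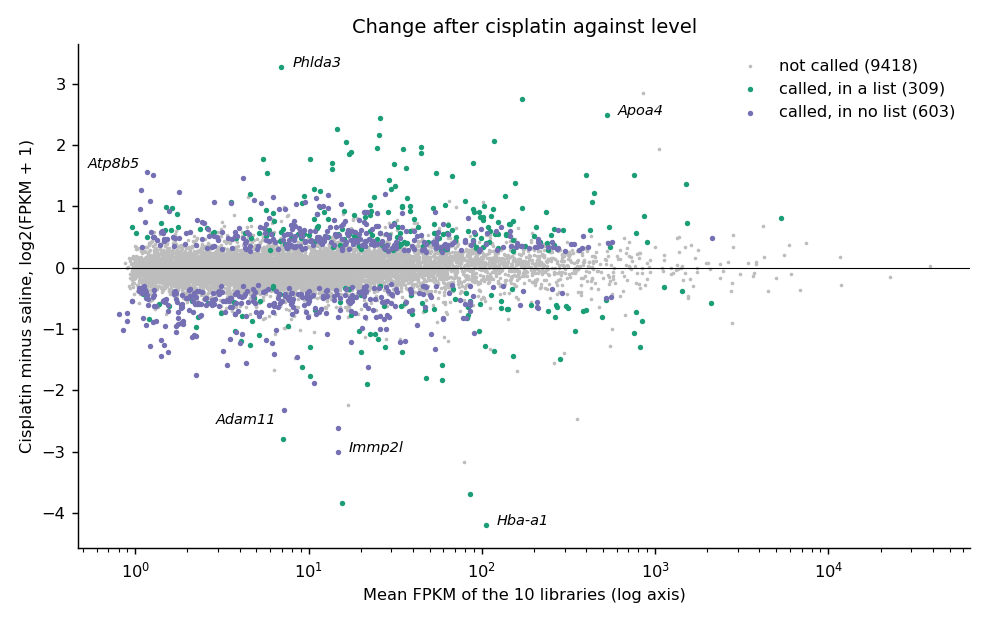
Cisplatin minus saline on log2(FPKM + 1) (vertical) against the mean FPKM of the 10 libraries (horizontal, log axis), 1 point per tested gene. Of 912 called genes, 309 were in a list and 603 in none; the named points run between Phlda3 at 3.28 and Hba-a1 at -4.202.

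The libraries held 25256043 to 31024726 reads assigned to genes in the cisplatin group and 27565957 to 34700317 reads in the saline group, so that 1 read in a gene of 1 kb was worth 0.0396 FPKM in the shallowest. The library saline 2 stood apart from its group. It was the highest or the lowest saline library in 73.2% of tested genes, against 23.8% to 42.6% for the other saline libraries, and without it 659 genes were called higher and 450 lower. Cisplatin 4 and cisplatin 2 held the extreme of their group in 57.2% and 52.2% of genes. Without cisplatin 3 the counts were 297 and 259, and without cisplatin 1 they were 320 and 291. Genes given below as risen or fallen kept their call when any 1 library was left out, save where a library is named. Where values are given for every library the groups did not overlap, except in Saa2, Hamp2, G6pc and Serpina7. The groups of Cyp4a14, Dbp, Lcn2, Clec2h, Ppp1r10 and Rps13 overlapped as well.

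The promoters of 3 genes are printed. The first is that of the iron hormone, some of whose known control elements lie in the window. The others belong to a pair of called genes in no lipid list that start head to head with a called gene of cholesterol synthesis. All are RefSeq windows on GRCm38.p6 from 250 bases before to 50 after the start, written 5′ to 3′ on the strand of the named gene.
Hamp, chr7:30943980-30944279, minus strand: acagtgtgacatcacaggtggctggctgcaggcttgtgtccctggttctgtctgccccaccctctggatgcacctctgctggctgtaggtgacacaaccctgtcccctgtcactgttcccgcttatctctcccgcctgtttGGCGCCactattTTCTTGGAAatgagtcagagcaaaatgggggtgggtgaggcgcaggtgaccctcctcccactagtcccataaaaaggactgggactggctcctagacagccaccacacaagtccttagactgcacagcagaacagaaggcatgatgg
Mmab, chr5:114443978-114444277, minus strand: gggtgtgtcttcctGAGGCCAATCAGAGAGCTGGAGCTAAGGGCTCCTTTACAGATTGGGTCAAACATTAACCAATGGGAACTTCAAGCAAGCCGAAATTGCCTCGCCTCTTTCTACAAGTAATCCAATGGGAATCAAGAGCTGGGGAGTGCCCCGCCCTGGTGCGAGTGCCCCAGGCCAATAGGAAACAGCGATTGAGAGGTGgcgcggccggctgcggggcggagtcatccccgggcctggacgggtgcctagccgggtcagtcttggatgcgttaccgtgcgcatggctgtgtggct
Cetn2, chrX:72918295-72918594, minus strand: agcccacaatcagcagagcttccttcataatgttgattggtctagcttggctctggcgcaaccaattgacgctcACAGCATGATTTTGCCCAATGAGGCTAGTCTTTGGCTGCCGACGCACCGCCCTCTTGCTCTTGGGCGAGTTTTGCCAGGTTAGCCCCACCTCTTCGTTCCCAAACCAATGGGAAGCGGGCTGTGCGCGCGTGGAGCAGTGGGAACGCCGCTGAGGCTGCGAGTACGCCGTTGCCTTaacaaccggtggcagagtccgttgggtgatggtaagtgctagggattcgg
In Hamp, hepcidin, the capitals mark GGCGCC, the core that SMAD proteins of BMP signalling recognise, whose first base lies 109 bases before the start, and TTCNNNGAA, the form that STAT proteins recognise, 97 bases before it; the matches do not overlap. On either strand GGCGCC occurs in 21.4% of the 8350 promoters found for tested genes and in 12% of all 27025 in the table, and TTCNNNGAA in 6.84% and 8.47%. In Mmab the capitals mark the 190 bases between Mmab and Mvk as the RefSeq gene table places them. The Mmab window is set on a start 46 bases further into the gene (base 114444027) than the gene's end in that table (base 114444073), so that the capitals stop short of the start of the window. In Cetn2 the capitals mark the 176 bases between Cetn2 and Nsdhl, and the window's start and the gene's end are the same base. A match is only a match of letters.

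Both partners of each head-to-head pair rose. Mvk, mevalonate kinase, had 20.8, 31.99, 25.7, 14.3 and 15.3 FPKM in cisplatin livers and 6.35, 3.53, 6.47, 4.30 and 8.55 FPKM in saline livers, a change of 1.71 ± 0.24 (SE, adjusted p = 0.00126). Mmab, which attaches the adenosyl group of vitamin B12, had 22.1, 23.3, 21.95, 19.6 and 18.1 FPKM in cisplatin livers and 9.94, 10.3, 8.96, 7.34 and 12.4 FPKM in saline livers. Its groups did not overlap, and it changed by 1.04 ± 0.12 (SE, adjusted p = 0.000434). Nsdhl, a sterol dehydrogenase, changed by 1.63 ± 0.23 (SE, adjusted p = 0.00149), and Cetn2, a centrin of the centrosome and of DNA damage recognition, by 0.79 ± 0.13 (SE, adjusted p = 0.00367). Cetn2 had 16.1, 14.9, 14.3, 12.1 and 12.04 FPKM in cisplatin livers and 8.44, 5.98, 7.89, 6.29 and 9.72 FPKM in saline livers. Every cisplatin value of these 4 genes lay above every saline value. In these 10 libraries 3283 pairs of tested genes lay within 5 kb of each other or overlapped, and in 54.1% of them both changes had the same sign. Both genes were called in 22 pairs, 10 with both higher, 10 with both lower and 2 with opposite calls. In 4 of the 22 the genes overlap, and as no strand setting is stated for the counting, reads of such pairs cannot be told apart.

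Among 134 tested genes that span over 300 kb, 65 fell (48.5%) and 2 rose, and their median change was -0.36. Of the 65, 10 reached 1 FPKM in saline livers alone and so had to fall once they passed the filter; without them, a split made after seeing the data, 55 of 124 fell (44.4%), with a median of -0.33. A mean over the 10 libraries favours neither group, and among the 46 genes of this length with a mean of at least 5 FPKM 15 fell (32.6%). The share at that level was 3.36% of 1935 genes under 10 kb and 3.76% of 6700 genes of any length. With no filter on low values, 111 of 437 genes over 300 kb fell and the median was -0.05; 307 of these averaged under 1 FPKM. Among 940 genes of 100 to 300 kb, 69 fell and 24 rose, with a median of -0.09. Among 2628 genes under 10 kb, 82 fell and 198 rose, with a median of 0.02. The 2 longest-class genes that rose were Exoc4, a subunit of the exocyst, and Esr1, the estrogen receptor. Exoc4, which also stands in the p53 list, changed by 0.65 ± 0.12 (SE, adjusted p = 0.00622). Esr1 changed by 0.49 ± 0.14 (SE, adjusted p = 0.0441) and lost its call without any 1 of cisplatin 1, 2, 3 or 4 or of saline 1, 3, 4 or 5 (adjusted p up to 0.0948).

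Over the 134 longest genes the median difference from the saline mean was -0.38, -0.40, -0.39, -0.35 and -0.32 in the 5 cisplatin libraries and -0.05, 0.08, -0.01, -0.02 and 0.03 in the 5 saline libraries. The groups lay well apart, and the cisplatin livers lay close together. For genes under 10 kb the cisplatin values were 0.04, -0.06, 0.10, 0.08 and -0.01 and the saline values -0.05, 0.14, -0.04, -0.07 and 0.03, which overlapped. With the lists set aside left out, 65 of 133 genes over 300 kb fell and 1 rose. The median in this length class was -0.43 in the 88 genes with a mean under 5 FPKM, -0.26 in the 38 genes of 5 to 20 FPKM and -0.56 in the 8 genes over 20 FPKM. Of the 312 fallen genes in no list, 39.9% span 100 kb or more, against 6.6% of the 291 risen ones and 10.6% of the genes in no list that were not called. The filter was passed through saline livers alone by 21 of these fallen genes and through cisplatin livers alone by 8 of the risen ones.

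**Figure D2:**
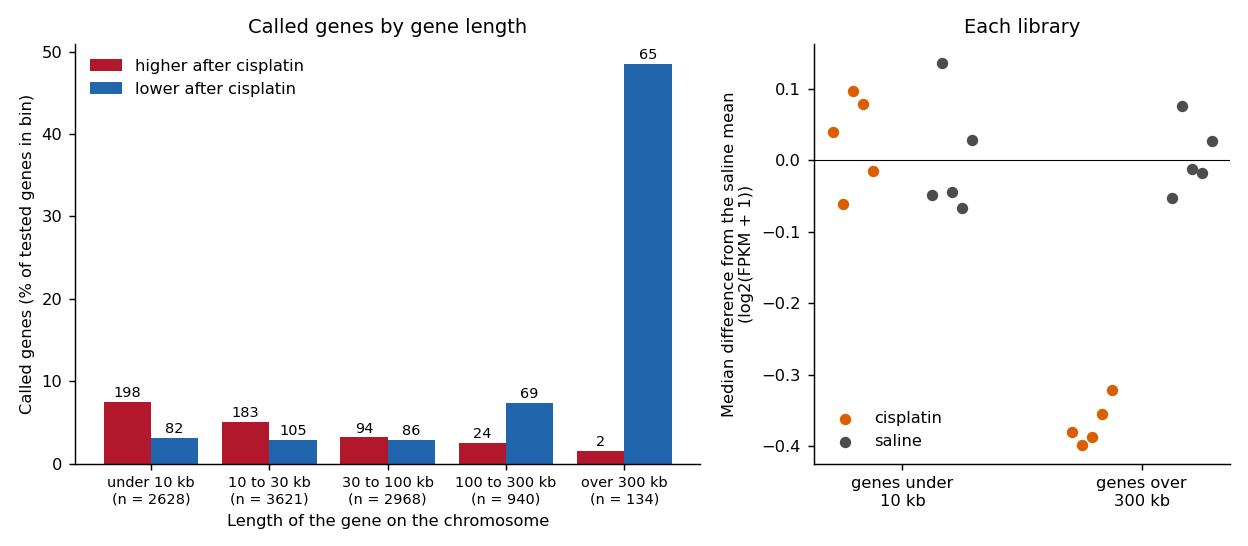
Left, called genes as a percentage of the tested genes in each class of gene length, with their number above each bar; 65 of 134 genes over 300 kb were lower after cisplatin, 10 of which passed the filter through saline livers alone. Right, the median difference of each library from the mean of the saline libraries on log2(FPKM + 1), with cisplatin libraries at -0.40 to -0.32 and saline libraries at -0.05 to 0.08 for genes over 300 kb.

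Immp2l, a peptidase of the mitochondrial inner membrane (chromosome 12, 41024061 to 41955588), had 3.74, 2.08, 1.64, 2.12 and 3.12 FPKM in cisplatin livers and 22.1, 29.7, 27.3, 26.6 and 29.04 FPKM in saline livers and fell by 3.01 ± 0.15 on the log2 scale (SE, adjusted p = 7.4e-07). Long genes with high liver expression fell as well. Dpyd, dihydropyrimidine dehydrogenase, which breaks down uracil and thymine and spans 871 kb (chromosome 3, 118562109 to 119432924), had 63.6, 55.6, 52.5, 51.7 and 64.01 FPKM in cisplatin livers and 120, 107, 133, 135 and 115 FPKM in saline livers. The groups were far apart, and the change was -1.07 ± 0.10 (SE, adjusted p = 5.26e-05). Cpq, a plasma carboxypeptidase, had 18.04, 16.9, 15.5, 14.9 and 18.04 FPKM in cisplatin livers and 37.1, 25.7, 39.8, 37.5 and 33.2 FPKM in saline livers, a change of -1.0004 ± 0.12 (SE, adjusted p = 0.00039). Msra, which repairs oxidised methionine, changed by -0.64 ± 0.10 (SE, adjusted p = 0.00251). Sugct, a glutarate CoA-transferase of mitochondria, changed by -1.21 ± 0.08 (SE, adjusted p = 6.77e-06), and Fars2, the mitochondrial phenylalanyl-tRNA synthetase, by -1.46 ± 0.14 (SE, adjusted p = 0.000102). Xrcc4, a partner of DNA ligase 4 in end joining that spans 241 kb, had 2.20, 2.05, 2.60, 1.89 and 1.70 FPKM in cisplatin livers and 3.87, 2.83, 4.37, 5.17 and 4.72 FPKM in saline livers, a change of -0.74 ± 0.13 (SE, adjusted p = 0.00533).

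In the direct fit of cisplatin against doxorubicin, which holds all 15 libraries, 864 of the tested genes were lower after cisplatin (8.36%) and 1193 higher (11.5%). Of the 134 genes over 300 kb, 43 were lower after cisplatin than after doxorubicin and 13 higher. Slc39a11, a zinc transporter, averaged 1.19 ± 0.446 FPKM after cisplatin and 5.92 ± 1.20 after doxorubicin (± SD, 5 libraries per drug), a difference of -1.67 ± 0.18 (SE, adjusted p = 1.4e-05). Fars2 differed by -1.28 ± 0.12 (SE, adjusted p = 4.64e-06). For Dpyd, at 57.5 ± 5.95 FPKM after cisplatin and 58.02 ± 5.17 after doxorubicin, the difference of -0.01 ± 0.09 (SE, adjusted p = 0.937) did not pass the threshold. The doxorubicin libraries were deeper (37603993 to 50727121 reads), and doxorubicin was given in water and not in saline, so that drug, vehicle and any sequencing run cannot be told apart in this contrast.

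The largest falls among called genes were those of Hba-a1, Hbb-bt and Hbb-bs, followed by Immp2l and then Hba-a2. Hba-a1, an adult alpha globin (chromosome 11, 32283672 to 32284486), had 14.97, 10.4, 4.52, 10.9 and 10.5 FPKM in cisplatin livers and 201, 245, 146, 152 and 260 FPKM in saline livers, and the groups were far apart. It fell by 4.202 ± 0.256 (SE, adjusted p = 2.52e-06). Hbb-bs, a beta globin, had 14.7, 11.96, 4.72, 14.1 and 14.3 FPKM in cisplatin livers and 170, 178, 112, 152 and 181 FPKM in saline livers, a change of -3.69 ± 0.25 (SE, adjusted p = 6.77e-06). Hba-a2 and Hbb-bt changed by -2.80 ± 0.16 (SE, adjusted p = 1.86e-06) and -3.84 ± 0.19 (SE, adjusted p = 7.4e-07). Their reads cannot be assigned with certainty between the near-identical copies. Of 11 tested members of the red cell list these 4 fell and 0 rose; Alas2, the first enzyme of heme synthesis in red cells, averaged 24.6 ± 5.20 FPKM after cisplatin and 23.3 ± 2.60 after saline. Other red cell markers were too low to test, such as Epb42, a protein of the red cell membrane skeleton, which was listed at 0 in all 5 cisplatin livers and averaged 0.0181 FPKM after saline. The summed level of the list was 378 to 414 FPKM in cisplatin livers and 669 to 816 FPKM in saline livers. Of that, Bsg, which hepatocytes also express, made up 270 to 294 FPKM in cisplatin livers and 217 to 300 FPKM in saline livers. Against doxorubicin the difference was -1.70 ± 0.40 (SE, adjusted p = 0.00717) for Hba-a1 and -1.02 ± 0.39 (SE, adjusted p = 0.0768) for Hbb-bt, which did not pass the threshold.

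Id1, Id3 and Hamp, which are known to answer to bone morphogenetic proteins, the signal by which the liver senses iron, were higher after cisplatin. Id1, an inhibitor of helix-loop-helix transcription factors, had 19.1, 22.5, 30.5, 37.1 and 28.6 FPKM in cisplatin livers and 8.85, 6.31, 5.07, 6.19 and 7.63 FPKM in saline livers. The lowest cisplatin liver exceeded the highest saline liver, and the change was 1.85 ± 0.18 (SE, adjusted p = 8.82e-05). Id3, of the same family, had 69.3, 73.2, 84.9, 81.5 and 87.2 FPKM in cisplatin livers and 41.9, 23.5, 15.9, 16.2 and 48.7 FPKM in saline livers, a change of 1.55 ± 0.28 (SE, adjusted p = 0.00533). Hamp had 1954, 1334, 3110, 2548 and 1950 FPKM in cisplatin livers and 1058, 755, 675, 909 and 738 FPKM in saline livers, a change of 1.36 ± 0.20 (SE, adjusted p = 0.00186). Its near copy Hamp2 had 128, 100, 232, 126 and 124 FPKM in cisplatin livers and 184, 636, 365, 632 and 301 FPKM in saline livers. Those groups overlapped, and its change of -1.48 ± 0.33 (SE, adjusted p = 0.0152) was not called without saline 2 (adjusted p = 0.0507). Reads of the 2 copies may be split between them with error. In the list of iron and heme metabolism 4 of 32 tested members rose and 0 fell. Id1, Id3 and a further member of their family were among these rises, and Hamp stood in the acute-phase list instead. Without cisplatin 3, cisplatin 5 or saline 4 the rises were 2, and 1 fell without cisplatin 5, saline 2 or saline 3. Id1 exceeded its level after doxorubicin by 0.68 ± 0.22 (SE, adjusted p = 0.0409). For Hamp and Id3 the differences of -0.28 ± 0.31 (SE, adjusted p = 0.579) and -0.45 ± 0.27 (SE, adjusted p = 0.28) did not pass the threshold.

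Plasma proteins of the liver rose in part. Of 46 tested acute-phase genes 7 rose and 3 fell (5 fell without cisplatin 4), and of 52 complement and coagulation genes 6 rose and 0 fell, or 4 to 7 higher with a library left out and 1 lower without cisplatin 4. Mbl2, the mannose-binding lectin of the complement system, had 1175, 840, 1350, 1259 and 999 FPKM in cisplatin livers and 414, 284, 360, 460 and 460 FPKM in saline livers, a change of 1.51 ± 0.16 (SE, adjusted p = 0.000168). Apcs, serum amyloid P, had 186, 227, 226, 160 and 148 FPKM in cisplatin livers and 91.5, 63.9, 95.6, 77.3 and 87.7 FPKM in saline livers, a change of 1.17 ± 0.15 (SE, adjusted p = 0.000555). Serpina3n, a secreted protease inhibitor, changed by 1.51 ± 0.28 (SE, adjusted p = 0.00653), Hp, haptoglobin, by 0.82 ± 0.16 (SE, adjusted p = 0.00714), and F11, coagulation factor XI, by 1.03 ± 0.16 (SE, adjusted p = 0.0022). Il1r1, the receptor of interleukin 1, went the other way, with 9.22, 8.59, 9.16, 13.1 and 11.8 FPKM in cisplatin livers and 15.04, 32.6, 41.6, 22.98 and 37.2 FPKM in saline livers, a change of -1.37 ± 0.24 (SE, adjusted p = 0.00432). Saa2, serum amyloid A2, had 618, 5691, 474, 592 and 61.6 FPKM in cisplatin livers and 66.3, 14.8, 725, 233 and 16.6 FPKM in saline livers. These values overlapped and varied among livers of one group, and the change of 2.85 ± 1.35 (SE, adjusted p = 0.247) was not called. Lcn2, lipocalin 2, was called at 2.76 ± 0.71 (SE, adjusted p = 0.037), but not without any 1 of cisplatin 1 or 4 or saline 1, 2, 4 or 5 (adjusted p up to 0.112). The highest values of Saa2, Lcn2 and Hp all came from cisplatin 2.

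Cxcl1, a chemokine for neutrophils, had 13.5, 10.2, 13.6, 25.2 and 16.1 FPKM in cisplatin livers and 5.72, 5.94, 7.03, 5.76 and 3.79 FPKM in saline livers, a change of 1.29 ± 0.20 (SE, adjusted p = 0.00269). It averaged 180 ± 24.1 FPKM after doxorubicin, a difference between the drugs of -3.49 ± 0.18 (SE, adjusted p = 8.04e-09). Zbp1, a sensor of Z-form nucleic acid, changed by 1.05 ± 0.16 (SE, adjusted p = 0.00229). In the interferon list 3 of 66 members rose, or 4.55%, near the 4.88% of all tested genes, and 0 fell. The rises were 1 without cisplatin 1, cisplatin 3 or saline 1, 5 without saline 2 and 8 without cisplatin 5. Of 21 genes of antigen presentation 0 were called in limma, with 3 higher and 2 lower at an unadjusted p under 0.05. Of 6 tested markers of monocytes and 4 of neutrophils, 0 were called in limma (1 higher monocyte marker at an unadjusted p under 0.05, and 1 called higher without cisplatin 2). The summed neutrophil markers were 5.63 to 11.97 FPKM in cisplatin livers and 7.08 to 11.4 FPKM in saline livers, which overlapped.

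**Figure D3:**
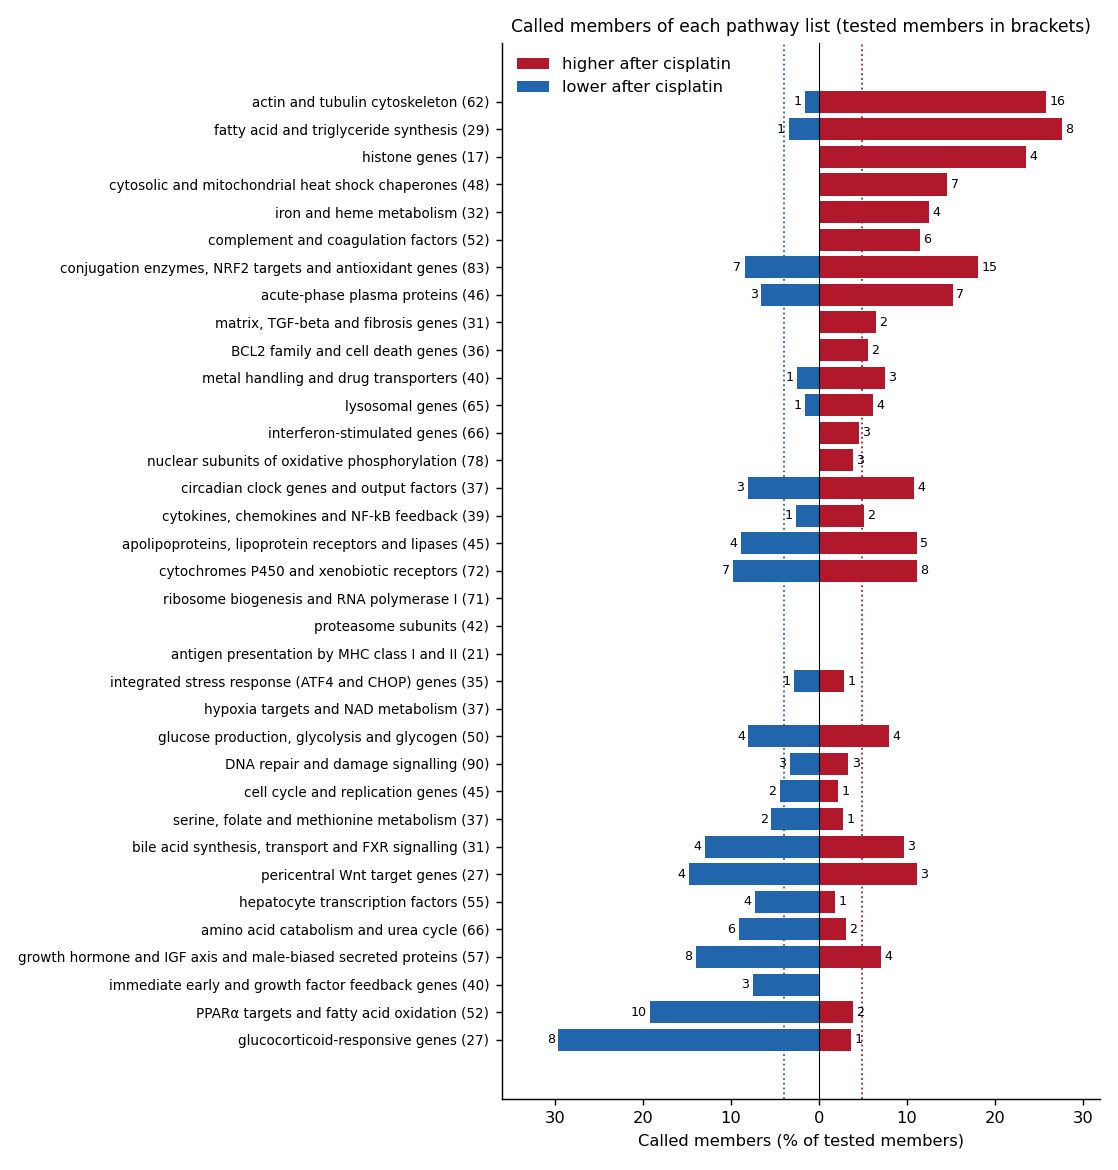
Called members of each pathway list as a percentage of its tested members (number in brackets), lower after cisplatin to the left and higher to the right, with the number called at each bar. Dotted lines mark the shares over all tested genes, 3.95% lower and 4.88% higher. The glucocorticoid list reaches 29.6% lower and the cytoskeleton list 25.8% higher. Some genes are counted in several lists.

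Fat metabolism moved in opposite ways. Targets of PPARα, the fasting receptor of fat burning, and enzymes of fatty acid oxidation fell in 10 of 52 and rose in 2, or 1 without cisplatin 3, saline 1 or saline 5. Their median change was -0.19. Angptl4, a fasting-induced inhibitor of lipoprotein lipase, had 58.4, 65.2, 48.2, 64.1 and 91.9 FPKM in cisplatin livers and 164, 223, 145, 155 and 157 FPKM in saline livers, a change of -1.37 ± 0.16 (SE, adjusted p = 0.000407). Slc27a2, which takes up and activates very long fatty acids, had 585, 485, 518, 615 and 772 FPKM in cisplatin livers and 1071, 1287, 1043, 1110 and 882 FPKM in saline livers, a change of -0.87 ± 0.13 (SE, adjusted p = 0.00231). Acsl1, an acyl-CoA synthetase, and Cyp4a14, a fatty acid hydroxylase, changed by -0.80 ± 0.15 (SE, adjusted p = 0.00687) and -1.29 ± 0.29 (SE, adjusted p = 0.0159), the second with overlapping groups. In fatty acid synthesis 8 of 29 rose and 1 fell; without cisplatin 1 or saline 1 the rises were 4, and without cisplatin 3 they were 3. The 1 fall was lost without cisplatin 1, 3, 4 or 5 or saline 1 or 5. Srebf1, the transcription factor of that pathway, changed by 0.99 ± 0.16 (SE, adjusted p = 0.00262), and Elovl1, an elongase, by 0.60 ± 0.09 (SE, adjusted p = 0.00149).

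Among apolipoproteins and lipases 5 of 45 rose and 4 fell; 3 rose without cisplatin 1, cisplatin 3 or saline 4, and 2 fell without cisplatin 1, 3 or 5 or saline 3. Apoa4, an apolipoprotein of chylomicrons and HDL (chromosome 9, 46240844 to 46243458), had 1325, 911, 719, 1012 and 546 FPKM in cisplatin livers and 177, 143, 139, 168 and 138 FPKM in saline livers. The groups were far apart. The change of 2.498 ± 0.20 (SE, adjusted p = 1.96e-05) was the largest rise outside the lists set aside that held without each library. Apoa4 averaged 402 ± 129 FPKM after doxorubicin, and cisplatin exceeded that by 1.16 ± 0.23 (SE, adjusted p = 0.00183). Lipc, hepatic lipase, fell, with 79.2, 76.2, 79.5, 72.5 and 81.6 FPKM in cisplatin livers and 128, 99.3, 113, 133 and 121 FPKM in saline livers, a change of -0.60 ± 0.09 (SE, adjusted p = 0.00185).

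Genes that glucocorticoids induce fell in 8 of 27, or 5 without cisplatin 3, and rose in 1, Lcn2. The lists share members, so their counts are not separate results. Angptl4 is also among the PPARα falls, and Igfbp1 also among the falls of the glucose and growth hormone lists. Cebpd, a transcription factor, had 3.48, 2.85, 2.08, 3.21 and 3.40 FPKM in cisplatin livers and 4.63, 7.83, 9.04, 4.88 and 5.66 FPKM in saline livers, a change of -0.86 ± 0.17 (SE, adjusted p = 0.0088). Igfbp1, a binding protein of insulin-like growth factors that insulin represses, changed by -1.27 ± 0.26 (SE, adjusted p = 0.0112), and Gadd45b, a stress-induced gene, by -1.62 ± 0.36 (SE, adjusted p = 0.0159). G6pc, the last enzyme of glucose release, had 62.96, 81.7, 62.9, 76.7 and 96.7 FPKM in cisplatin livers and 178, 270, 225, 94.1 and 365 FPKM in saline livers. Its highest cisplatin value lay above the lowest saline value, and the change was -1.44 ± 0.29 (SE, adjusted p = 0.00957). The growth hormone list also holds the insulin-like growth factor axis and male-biased secreted proteins. Among its 57 tested genes 8 fell and 4 rose. The falls were 4 without cisplatin 1 or cisplatin 3 and 5 without saline 5, and the rises 2 without cisplatin 3. Stat5b, which carries the growth hormone signal, had 11.6, 13.1, 11.1, 13.2 and 11.5 FPKM in cisplatin livers and 18.1, 20.4, 16.9, 16.2 and 19.5 FPKM in saline livers, a change of -0.55 ± 0.09 (SE, adjusted p = 0.00313). Of 20 tested major urinary protein genes and pseudogenes, 5 were called lower, or 2 without cisplatin 1 and 3 without cisplatin 3. Over all tested genes 3.95% were called lower. By sign 19 of the 20 changes were negative. These genes are a growth hormone-dependent cluster of near-identical copies, picked after its values were seen.

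Of 37 clock genes 4 rose and 3 fell; 1 rose without cisplatin 3 and 2 without saline 4. Rgs16, a brake on G protein signalling with a strong day rhythm in liver, had 10.8, 5.42, 14.1, 5.93 and 6.30 FPKM in cisplatin livers and 14.5, 32.9, 52.03, 31.9 and 43.4 FPKM in saline livers, a change of -1.89 ± 0.32 (SE, adjusted p = 0.00417). Slc45a3, a sugar transporter, changed by -1.08 ± 0.14 (SE, adjusted p = 0.000619). Dbp, a clock output factor, was called at 2.44 ± 0.60 (SE, adjusted p = 0.0273), but not without cisplatin 3, cisplatin 4 or saline 4 (adjusted p up to 0.0643).

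Enzymes of drug conjugation and targets of NRF2, the factor of the electrophile response, rose in 15 of 83 and fell in 7. The rises were 12 to 17 with a library left out, and the falls were 4 without cisplatin 1, cisplatin 2 or saline 3 and 2 without cisplatin 3 or saline 1. Nqo1, a quinone reductase, had 17.1, 15.4, 15.8, 18.6 and 12.1 FPKM in cisplatin livers and 8.59, 4.55, 8.48, 6.78 and 9.31 FPKM in saline livers, a change of 0.9958 ± 0.17 (SE, adjusted p = 0.00386). Gclc, the first enzyme of glutathione synthesis, changed by 0.72 ± 0.14 (SE, adjusted p = 0.00689) and Gstm2, a glutathione transferase, by 0.91 ± 0.15 (SE, adjusted p = 0.00397). Ugdh, which makes the sugar for glucuronidation, had 124, 158, 117, 108 and 86.7 FPKM in cisplatin livers and 63.8, 55.3, 62.6, 49.4 and 69.6 FPKM in saline livers, a change of 0.95 ± 0.15 (SE, adjusted p = 0.0023), and exceeded doxorubicin by 0.81 ± 0.16 (SE, adjusted p = 0.00162). Sult1d1, a sulfotransferase, changed by -0.77 ± 0.11 (SE, adjusted p = 0.00134). Of 72 P450 and other phase I genes 8 rose and 7 fell; 4 rose without cisplatin 1 or cisplatin 3 and 5 without saline 5, and 12 fell without saline 2. Ces2e, a carboxylesterase, had 116, 92.97, 106, 95.3 and 81.8 FPKM in cisplatin livers and 40.5, 16.98, 44.3, 43.6 and 33.5 FPKM in saline livers, a change of 1.498 ± 0.22 (SE, adjusted p = 0.00186). Cyp1a2, the caffeine-oxidising P450, had 319, 359, 332, 378 and 390.0 FPKM in cisplatin livers and 590.0, 671, 711, 535 and 621 FPKM in saline livers, a change of -0.81 ± 0.10 (SE, adjusted p = 0.000403). Reads of the Ces2 and Cyp2 families, whose copies are alike, are uncertain.

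Genes of the cytoskeleton rose in 16 of 62 and fell in 1; without cisplatin 3 the rises were 8 and without saline 3 they were 10, and the fall was lost without cisplatin 1, 2, 3 or 5 or saline 4 or 5. Tubb4b, a beta tubulin, had 109, 127, 112, 115 and 84.3 FPKM in cisplatin livers and 54.3, 52.2, 48.1, 43.8 and 53.4 FPKM in saline livers, a change of 1.10 ± 0.11 (SE, adjusted p = 0.000115). Krt8, the keratin of hepatocytes, changed by 0.72 ± 0.12 (SE, adjusted p = 0.00445), Myh9, a non-muscle myosin, by 0.53 ± 0.09 (SE, adjusted p = 0.00397) and Lmna, a nuclear lamin, by 0.53 ± 0.09 (SE, adjusted p = 0.0045). Histone genes rose in 4 of 17 and fell in 0. Hist2h3c2, whose usual messages carry no poly(A) tail, changed by 0.98 ± 0.18 (SE, adjusted p = 0.00689). Of 48 heat shock chaperones 7 rose and 0 fell, a count that ran between 2 (without cisplatin 1, cisplatin 3 or saline 1) and 11 (without saline 2), with 3 without saline 5 and 4 without cisplatin 2, saline 3 or saline 4.

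**Figure D4:**
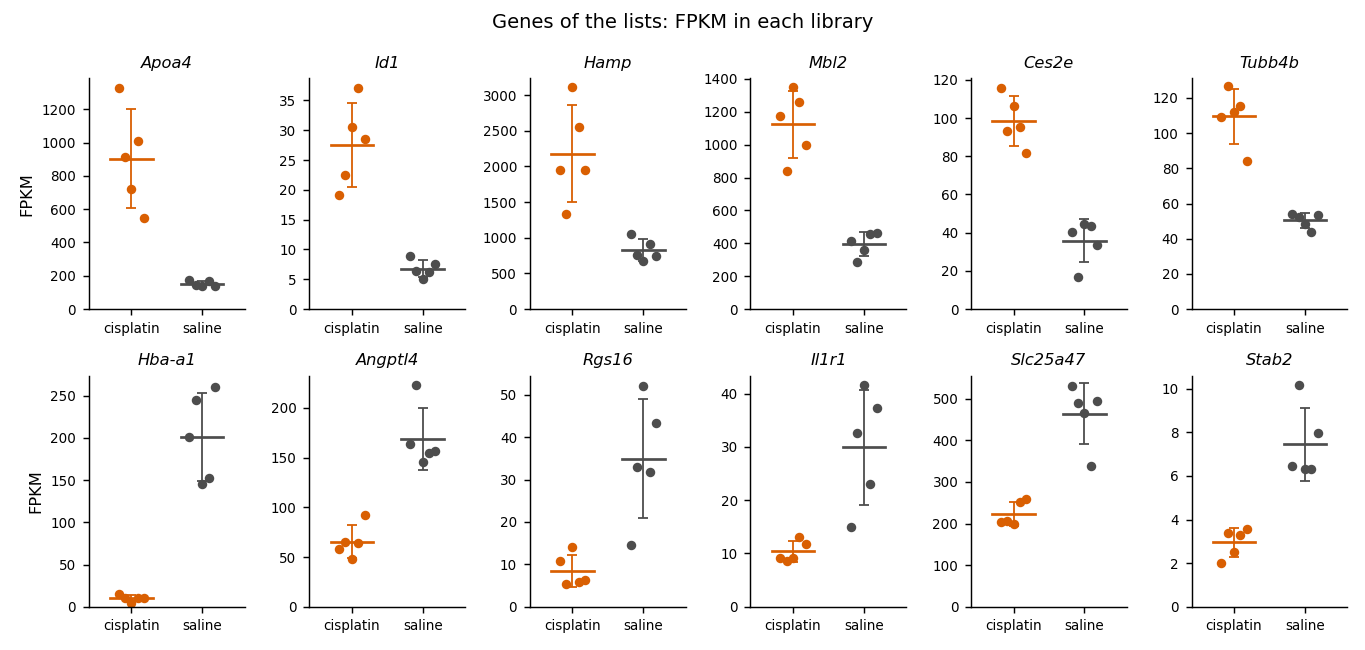
FPKM of 12 genes of the lists in each library, cisplatin left and saline right (points, libraries; lines, mean; bars, SD; n = 5 each). In Apoa4 the cisplatin livers reach 1325 and the saline livers 177 FPKM, and in each of the 12 genes the groups do not overlap.

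Markers of sinusoidal endothelial cells, which line the liver's capillaries, were lower in 27 of 29 by sign. Their median change was -0.38, against -0.01 over all tested genes. Called lower were 4 (13.8%, against 3.95% of all tested genes) and called higher 0. Without cisplatin 3 or saline 5 the falls were 2. Stab2, a scavenger receptor of these cells, had 1.99, 3.40, 2.52, 3.30 and 3.54 FPKM in cisplatin livers and 6.46, 10.2, 6.33, 6.31 and 7.97 FPKM in saline livers, a change of -1.09 ± 0.15 (SE, adjusted p = 0.00119). Dnase1l3, a secreted DNase, changed by -0.79 ± 0.17 (SE, adjusted p = 0.013). Stab2 spans 167 kb. The summed level of the 32 listed markers was 125 to 195 FPKM in cisplatin livers and 187 to 295 FPKM in saline livers, which overlapped, and none was at 0 in all 10 libraries. Summed over 19 markers of hepatocytes, the level was 92042 to 99165 FPKM in cisplatin livers and 79743 to 99095 FPKM in saline livers, so the samples carry the markers of liver. Markers of Kupffer cells, the liver's resident macrophages, summed to 161 to 202 FPKM in cisplatin livers and 152 to 210 FPKM in saline livers. Whether cell makeup had a part in any result was not tested. Of 7 bile duct markers 2 rose and 0 fell, or 1 fell without cisplatin 2. One was Krt19, the keratin of duct cells, with 2.79, 1.68, 2.71, 1.51 and 1.36 FPKM in cisplatin livers and 0.730, 0.925, 0.851, 0.601 and 0.837 FPKM in saline livers, a change of 0.72 ± 0.14 (SE, adjusted p = 0.00784); it passed the filter through the cisplatin livers alone. The other was Tstd1, a sulfurtransferase, with a change of 0.86 ± 0.09 (SE, adjusted p = 0.000112). The summed level of the 15 listed bile duct markers was 96.9 to 140 FPKM after cisplatin and 73.4 to 97.1 FPKM after saline, which overlapped. Of these markers Spp1 also stands in the monocyte list and Aqp1 in the endothelial list.

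Several lists moved little or not at all. Ribosome biogenesis had 0 called members of 71 in limma (2 higher and 1 lower at an unadjusted p under 0.05, and 1 called higher without cisplatin 5), the proteasome 0 of 42 (3 and 1) and hypoxia and NAD metabolism 0 of 37 (1 and 4). Of 90 DNA repair genes 3 rose and 3 fell; 1 fell without cisplatin 1, 2, 3 or 5 or saline 1, 2, 3 or 5, and 5 rose without saline 2. Slc30a1, a zinc exporter in the list of metal handling, changed by 0.53 ± 0.11 (SE, adjusted p = 0.0101).

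Among genes in no list, 19 of the 291 higher and 36 of the 312 lower ones changed by at least 1 on the log2 scale. When a library was left out, 157 to 402 were higher and 203 to 342 lower; the higher count was 172 without cisplatin 1, 157 without cisplatin 3, 191 without saline 1 and 191 without saline 3, and the lower count 203 without cisplatin 3. In every one of the 10 refits without a library 139 of the higher and 182 of the lower genes were called. The risen genes were short, with a median length of 14.6 kb, and the fallen ones long, with a median of 49.4 kb, where genes in no list that were not called had a median of 23.5 kb.

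Atp8b5, a lipid flippase of the P4-ATPase family (chromosome 4, 43266722 to 43373831), had 2.47, 1.68, 1.91, 3.42 and 2.37 FPKM in cisplatin livers and 0.131, 0.124, 0.110, 0.309 and 0.132 FPKM in saline livers. It was near the floor of detection in saline livers, and the change was 1.52 ± 0.12 (SE, adjusted p = 3.01e-05). Ddias, an inhibitor of cell death named for its induction by DNA damage, was likewise near 0 after saline, with 2.25, 1.08, 1.39, 2.996 and 2.02 FPKM in cisplatin livers and 0.111, 0.246, 0.293, 0.233 and 0.115 FPKM in saline livers, a change of 1.26 ± 0.15 (SE, adjusted p = 0.000528). Both, like Ltc4s and Slpi below, passed the filter through the cisplatin group alone and so had to be higher there. Syt12, a synaptotagmin, had 6.09, 5.59, 4.74, 11.97 and 5.25 FPKM in cisplatin livers and 1.44, 1.72, 1.51, 1.71 and 2.03 FPKM in saline livers, a change of 1.46 ± 0.19 (SE, adjusted p = 0.000733). Aaas, the nuclear pore protein aladin, had 18.3, 10.6, 14.6, 21.4 and 13.5 FPKM in cisplatin livers and 5.92, 6.74, 6.07, 5.81 and 7.72 FPKM in saline livers. No values overlapped, and the change was 1.13 ± 0.16 (SE, adjusted p = 0.00123). Commd3 changed by 0.91 ± 0.12 (SE, adjusted p = 0.00102) and Ikbke, a kinase of innate immune signalling, by 0.91 ± 0.16 (SE, adjusted p = 0.00523).

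Enzymes and carriers of small molecules were among the risen genes outside the lists. Rdh5, a retinol dehydrogenase, had 31.3, 29.5, 35.4, 35.1 and 31.3 FPKM in cisplatin livers and 13.6, 19.9, 21.1, 15.9 and 15.1 FPKM in saline livers, a change of 0.90 ± 0.12 (SE, adjusted p = 0.000853). It was higher than after doxorubicin, by 0.60 ± 0.13 (SE, adjusted p = 0.00368). Fabp2, a fatty acid-binding protein best known in the intestine, had 120.0, 88.9, 110, 111 and 98.7 FPKM in cisplatin livers and 63.9, 78.8, 47.7, 52.98 and 58.2 FPKM in saline livers, a change of 0.81 ± 0.13 (SE, adjusted p = 0.00311). Slc10a2, a sodium-dependent bile acid transporter, had 5.61, 5.42, 4.67, 3.98 and 1.751 FPKM in cisplatin livers and 1.404, 1.53, 1.41, 1.49 and 1.18 FPKM in saline livers. Its lowest cisplatin value, that of cisplatin 5, lay close to the highest saline value, and it changed by 1.07 ± 0.20 (SE, adjusted p = 0.00687). Ltc4s, leukotriene C4 synthase, changed by 1.24 ± 0.23 (SE, adjusted p = 0.006). Micu2, a gatekeeper of the mitochondrial calcium channel, changed by 0.77 ± 0.10 (SE, adjusted p = 0.000853). Odc1 and Srm, a pair of enzymes that make polyamines, changed by 0.66 ± 0.13 (SE, adjusted p = 0.00968) and 0.68 ± 0.15 (SE, adjusted p = 0.015).

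Prss8, the membrane protease prostasin, had 4.09, 4.54, 6.35, 5.80 and 5.08 FPKM in cisplatin livers and 1.68, 1.56, 2.02, 2.21 and 2.34 FPKM in saline livers, a change of 1.05 ± 0.12 (SE, adjusted p = 0.000339). Slpi, a leukocyte protease inhibitor, had 2.10, 2.21, 1.04, 1.85 and 1.30 FPKM in cisplatin livers and 0.919, 0.0810, 0, 0.164 and 0.948 FPKM in saline livers. It was listed at 0 in 1 saline liver, and the change was 0.96 ± 0.21 (SE, adjusted p = 0.0144). Tgm2 and Tgm1, a pair of transglutaminases, changed by 0.68 ± 0.12 (SE, adjusted p = 0.00454) and 1.05 ± 0.24 (SE, adjusted p = 0.0189). Pstpip2, an adaptor of the actin skeleton in myeloid cells, changed by 1.15 ± 0.17 (SE, adjusted p = 0.00165), and Klhdc7a by 0.96 ± 0.16 (SE, adjusted p = 0.00421). Cib3, a calcium-binding protein, had 21.9, 10.99, 16.6, 13.1 and 20.7 FPKM in cisplatin livers and 8.52, 8.64, 7.85, 5.82 and 7.19 FPKM in saline livers, a change of 1.01 ± 0.18 (SE, adjusted p = 0.00478). It averaged 2.80 ± 1.499 FPKM after doxorubicin, and the drugs differed by 2.27 ± 0.24 (SE, adjusted p = 1.08e-05). Clec2h, a lectin of the gut, averaged 13.4 ± 4.39 FPKM after cisplatin and 3.06 ± 1.23 after doxorubicin, a difference of 1.83 ± 0.27 (SE, adjusted p = 0.000177).

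Adam11, a member of the ADAM family without protease activity, known from the nervous system (chromosome 11, 102761413 to 102780263), fell furthest among the named protein-coding genes in no list that span under 300 kb. It had 1.69, 1.21, 1.84, 1.77 and 2.09 FPKM in cisplatin livers and 8.99, 16.5, 11.3, 14.2 and 12.7 FPKM in saline livers. The groups were far apart, and the level was 8.03 ± 3.05 FPKM on average after doxorubicin. The change against saline was -2.32 ± 0.15 (SE, adjusted p = 3.13e-06), and that against doxorubicin -1.68 ± 0.19 (SE, adjusted p = 1.66e-05). Serpinb1a, an inhibitor of neutrophil proteases, had 0.802, 0.813, 1.05, 1.97 and 2.38 FPKM in cisplatin livers and 4.69, 5.45, 4.71, 6.02 and 3.99 FPKM in saline livers, a change of -1.35 ± 0.18 (SE, adjusted p = 0.000956). Hdc, which makes histamine, had 8.14, 7.62, 6.90, 11.8 and 13.4 FPKM in cisplatin livers and 31.4, 74.7, 21.9, 19.4 and 26.1 FPKM in saline livers. The highest value came from saline 2, no value overlapped, and the change was -1.62 ± 0.31 (SE, adjusted p = 0.00781). Lrrc16a (Carmil1 in RefSeq), a regulator of actin capping, changed by -1.55 ± 0.30 (SE, adjusted p = 0.00848) and Fam209 by -1.37 ± 0.30 (SE, adjusted p = 0.0144), each with its highest value in saline 2; Fam209 passed the filter through the saline group alone.

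Thyroid hormone genes in no list moved in opposite directions. Dio1, the liver deiodinase that activates thyroxine, had 32.2, 23.3, 36.9, 27.9 and 29.05 FPKM in cisplatin livers and 76.4, 76.5, 62.1, 111 and 60.3 FPKM in saline livers, a change of -1.32 ± 0.16 (SE, adjusted p = 0.000555). Serpina7, the plasma carrier of thyroxine, had 19.9, 16.3, 17.3, 16.6 and 8.89 FPKM in cisplatin livers and 4.50, 7.47, 9.48, 8.27 and 6.85 FPKM in saline livers. The lowest cisplatin value lay below the highest saline value, and the change was 1.0043 ± 0.21 (SE, adjusted p = 0.0116). These 2 were set side by side after their values were seen.

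Tymp, thymidine phosphorylase, and Odf3b lie 410 bases apart on chromosome 15, and both fell. Tymp (chromosome 15, 89371631 to 89377036) had 26.99, 36.1, 22.5, 38.8 and 34.8 FPKM in cisplatin livers and 73.3, 108, 48.3, 55.97 and 66.05 FPKM in saline livers, a change of -1.09 ± 0.20 (SE, adjusted p = 0.00687). Odf3b had 14.2, 19.8, 14.6, 28.9 and 22.8 FPKM in cisplatin livers and 41.8, 60.8, 47.9, 37.97 and 45.98 FPKM in saline livers, a change of -1.21 ± 0.19 (SE, adjusted p = 0.00229). Cpt1b, a carnitine palmitoyltransferase best known in muscle and placed further along the same chromosome (chromosome 15, 89416405 to 89425862), had 2.41, 2.54, 2.73, 3.63 and 3.04 FPKM in cisplatin livers and 6.52, 16.7, 5.14, 4.87 and 9.30 FPKM in saline livers, a change of -1.18 ± 0.26 (SE, adjusted p = 0.015). The highest saline value was that of saline 2 in each of the 3 genes.

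Of 38 tested mitochondrial carriers named Slc25a, gathered after their values were seen, 5 fell and 2 rose. The falls were 3 without cisplatin 2, cisplatin 3 or saline 5, and the rises 1 without cisplatin 1, 2 or 3 or saline 1, 3, 4 or 5. Slc25a47, a carrier made almost solely by hepatocytes, had 203, 206, 200, 251 and 260 FPKM in cisplatin livers and 530.0, 491, 465, 339 and 493 FPKM in saline livers, a change of -1.04 ± 0.13 (SE, adjusted p = 0.000555). Slc25a42, a carrier of coenzyme A, changed by -0.84 ± 0.16 (SE, adjusted p = 0.0075). Chchd6, a part of the complex that shapes the inner membrane, spans 212 kb, had 0.205, 0.244, 0.133, 0.375 and 0.432 FPKM in cisplatin livers and 2.29, 1.24, 2.37, 1.64 and 3.18 FPKM in saline livers and changed by -1.27 ± 0.15 (SE, adjusted p = 0.000407). It passed the filter through the saline livers alone, as did Atg10, described next. Plin4, a coat protein of lipid droplets, changed by -1.41 ± 0.31 (SE, adjusted p = 0.0152).

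Autophagy genes, gathered by symbol after their values were seen, fell in 8 of 27 and rose in 1; the falls were 5 without cisplatin 3 or saline 1, 3 or 5. Ulk1, the kinase that starts autophagy, had 12.2, 12.8, 11.96, 16.6 and 14.5 FPKM in cisplatin livers and 20.3, 29.998, 22.6, 17.8 and 27.6 FPKM in saline livers, a change of -0.74 ± 0.14 (SE, adjusted p = 0.00744). Atg10, a conjugating enzyme, spans 289 kb and changed by -0.94 ± 0.09 (SE, adjusted p = 0.000112). Ccng2, a cyclin that FOXO factors induce, changed by -0.75 ± 0.13 (SE, adjusted p = 0.00372). Irf2bp2, a corepressor, had 16.7, 21.7, 17.7, 19.8 and 19.4 FPKM in cisplatin livers and 35.3, 39.9, 28.9, 30.9 and 41.1 FPKM in saline livers, a change of -0.84 ± 0.11 (SE, adjusted p = 0.000853). Fbxo31, a ubiquitin ligase adaptor, changed by -0.98 ± 0.15 (SE, adjusted p = 0.00251), Arl4d, a small GTPase, by -1.20 ± 0.22 (SE, adjusted p = 0.00574), and Ppp1r10, a nuclear subunit of protein phosphatase 1, by -1.09 ± 0.22 (SE, adjusted p = 0.0113).

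Genes of cytosolic ribosomal proteins and their close paralogs were also gathered by symbol after their values were seen. They rose in 23 of 83 and fell in 0, where 4.88% of all tested genes rose. Of the 83 changes 77 were above 0, and their median was 0.24, against -0.01 over all tested genes. The rises were 8 without cisplatin 3, 13 without cisplatin 1, cisplatin 2 or saline 3, 14 without saline 1 and 32 without saline 2, and 1 fell without saline 4. Rpl10 had 641, 624, 662, 648 and 631 FPKM in cisplatin livers and 478, 463, 479, 447 and 541 FPKM in saline livers, a change of 0.42 ± 0.07 (SE, adjusted p = 0.00505), and Rps13 changed by 0.59 ± 0.12 (SE, adjusted p = 0.00916). Reads of ribosomal protein genes may be shared with near-identical copies, so the values of single members are uncertain. Mitochondrial ribosomal proteins rose in 2 of 77 and fell in 0. Zinc finger genes named Zfp rose in 2 of 229 and fell in 0; 5 rose without cisplatin 2 and 6 without saline 2, and 1 fell without cisplatin 4 or saline 1, 2 or 3.

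**Figure D5:**
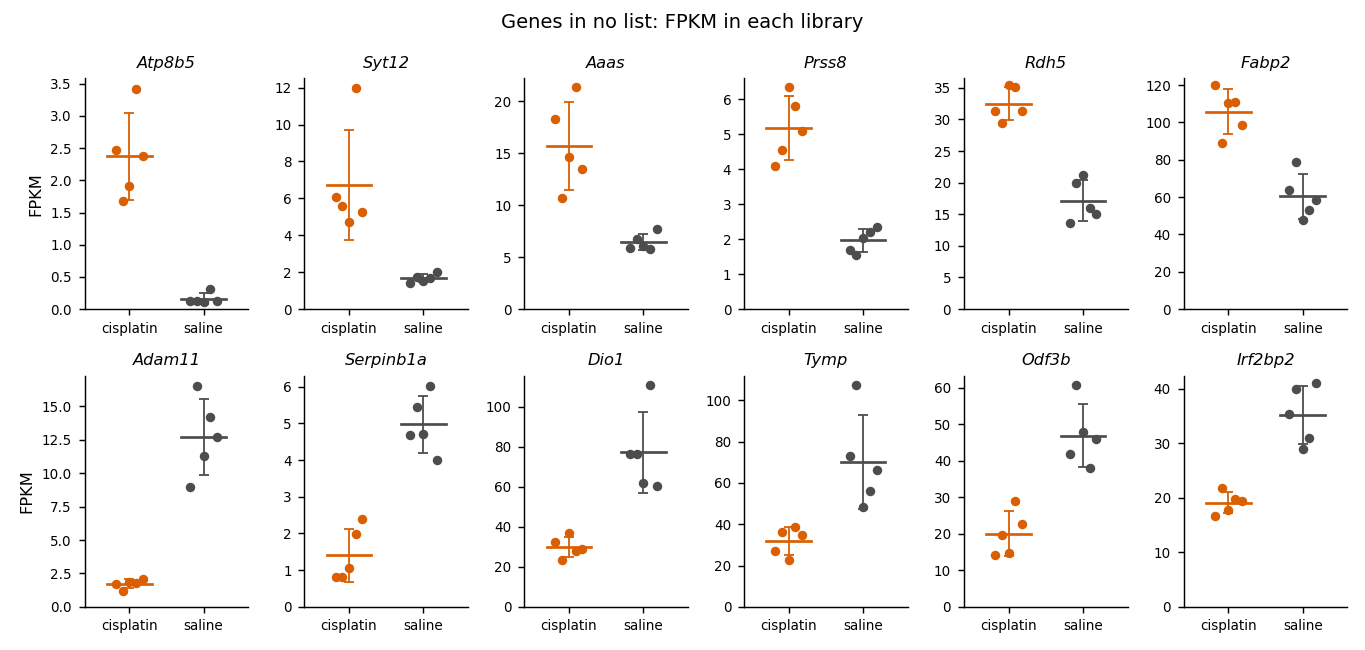
FPKM of 12 genes in no list in each library, cisplatin left and saline right (points, libraries; lines, mean; bars, SD; n = 5 each). The 6 genes of the upper row were higher and the 6 of the lower row lower after cisplatin, and in none of the 12 do the groups overlap.

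The called genes differed in degree among the cisplatin livers; as these values chose the genes, they are given as a description. Among the 504 higher genes cisplatin 3 was the highest of its group in 171 and cisplatin 5 in 7, and cisplatin 5 was the lowest in 197 and cisplatin 3 in 30. Among the 408 lower genes cisplatin 3 was the lowest in 120 and cisplatin 5 in 32. The median difference of the higher genes from the saline mean was 0.62 in cisplatin 3 and 0.40 in cisplatin 5, and that of the lower genes -0.64 and -0.51, with the other 3 cisplatin livers between them in both. The median SD of log2(FPKM + 1) was 0.166 in the cisplatin group and 0.192 in the saline group, or 0.131 in the saline group without saline 2.

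Promoter letters of risen and fallen genes are given as a description, with no test. Outside the lists set aside, promoters were found for 335 higher and 321 lower genes. The TATA box form TATAAA, on either strand, stood in 9.85% of the higher, 6.23% of the lower and 7.16% of all tested genes' promoters. The FOXO form GTAAACA stood in 4.48%, 3.43% and 2.65%, the D-box TTATGTAA of clock output factors in 1.49%, 0.623% and 0.587%, and the SREBP form TCACNCCAC in 2.39%, 1.56% and 1.15%. The D-box shares rest on 5 higher and 2 lower genes. The E-box CACGTG stood in 8.66%, 7.48% and 10.5%, and GGCGCC in 17.9%, 19.9% and 21.4%. The metal response form TGCACNC stood in 15.8%, 11.8% and 12.3%. The aryl hydrocarbon receptor form TTGCGTG stood in 1.19%, 2.49% and 1.72%, which rests on 4 higher and 8 lower genes. Over all 27025 promoters of the table the shares were 14.2% for TATAAA, 3.55% for GTAAACA, 0.955% for TTATGTAA, 1.22% for TCACNCCAC and 7.24% for CACGTG. The median GC content was 59.0% in higher, 62.3% in lower and 60.7% in all tested genes' promoters.

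The filter decided which genes could be described. Exactly 5 libraries reached 1 FPKM in 150 tested genes, and exactly 4 did so in 139 genes that were left out. In 36 tested genes all 5 libraries of one group and none of the other reached 1 FPKM, 13 through the cisplatin group and 23 through the saline group, so these had to differ.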

How the data were processed

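Liver RNA of 15 samples was deposited by the authors as one table of FPKM values per gene. Reads were trimmed with Trim Galore 0.4.1, aligned with HISAT2 2.0.1 to GRCm38 (mm10) and counted with featureCounts 1.4.6, with edgeR also named, per the submitters' processing notes. The annotation and strand setting are not given in the sources used here. The last doxorubicin column carries a number that no sample title has. It could not be matched to a single sample and entered only as a member of its group.

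Levels were analysed as log2(FPKM + 1), which understates the change of low genes, with limma 3.58.1 in R 4.3.3 (empirical Bayes with trend, robust, two-sided, Benjamini-Hochberg over the 10330 genes). FPKM steps gave whole reads, from which depth was recovered. Gene positions and promoters are RefSeq's on GRCm38.p6; 10291 tested genes were placed. The members and lists were chosen with earlier results of these data known. Named genes are the 15 largest rises and 15 largest falls without overlap, over all genes and over those in no list, and up to 3 called members per list, direction and length class with the smallest adjusted p. Others were chosen after their values were seen: Arl4d, Ccng2, Clec2h, Commd3, Cpq, Cpt1b, Cyp4a14, Dbp, Dpyd, Exoc4, Fabp2, Fbxo31, Gclc, Gstm2, Hp, Ikbke, Irf2bp2, Lmna, Msra, Mvk, Nqo1, Nsdhl, Odc1, Odf3b, Ppp1r10, Rdh5, Rpl10, Rps13, Saa2, Serpina7, Slc25a42, Srm, Sugct, Tgm2, Tymp, Ulk1, Alas2 and Bsg. The fit was tested on simulated data.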

Additional observations from a re-analysis of the deposited data

Results flagged for a closer look

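Among the genes named, 22 of 224 groups of 5 values held a library set apart by a Dixon ratio over 0.71. This ratio is the gap to the nearest value divided by the range of the group. The cut-off is meant to flag about 1 in 20 groups of independent normal values. These genes were chosen from the same data and share libraries, so that rate is no measure of chance here. Saline 2 held 8 of the 22. In that library Hdc had 74.67, Lrrc16a 16.132, Plin4 20.653, Fam209 7.4891 and Angptl4 223.01 FPKM, each the highest saline value of a gene that was lower after cisplatin. Lmna had 21.346 and Hist2h3c2 1.8039 FPKM there, the highest saline values of genes that were higher after cisplatin, and Pstpip2 had 2.3056 FPKM, the lowest. The other outlying saline values were 0.30908 FPKM for Atp8b5 in saline 4 and 81.819 FPKM for Arl4d in saline 3.

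In cisplatin 2, Saa2 had 5691.2, Hp 9484 and Lcn2 939.58 FPKM as the highest values. The nearest cisplatin values were 617.69 FPKM for Saa2, 6741.6 for Hp and 219.72 for Lcn2. Other acute-phase genes did not share this, as Hamp and Mbl2 had their lowest cisplatin values in cisplatin 2. In cisplatin 3 Tgm1 had 15.7, Srm 29.357 and Hamp2 231.51 FPKM as the highest values, and Hbb-bs 4.7228 FPKM as the lowest. In cisplatin 4 Syt12 had 11.974 and Klhdc7a 13.805 FPKM as the highest values, and Fars2 3.1656 FPKM as the lowest. Hist2h3c2 had 3.557 FPKM in cisplatin 1 and Acsl1 235.36 FPKM in cisplatin 5, each the highest of its group. The part of any library's handling in these values was not tested.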

How the results depend on the processing

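Against 504 higher and 408 lower genes, an adjusted p of 0.01 gave 184 and 157, and a minimum change of 1 on the log2 scale gave 67 and 66. A mean of at least 5 FPKM gave 269 lower genes. With 1 library left out the counts ran from 297 (without cisplatin 3) to 659 (without saline 2) higher and from 259 to 450 lower in the same libraries. Of the genes over 300 kb, 65 were lower; the count was 111 with no filter on low values, 16 at a mean of at least 5 FPKM, 43 at an adjusted p of 0.01 and 16 at a change of at least 1. Their median of -0.3605 was -0.4908 and -0.42 with pseudocounts of 0.1 and 0.5, -0.0467 with no filter, -0.286 at a mean of at least 5 FPKM, -0.4285 on TPM and -0.519 with limma-voom on recovered reads, chosen after seeing the data. Fewer or more genes tested set the counts under the filters; the cause of the other shifts was not tested.

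With the replicate number as a block (replicate block), 157 genes were higher, 152 lower and 40 of those over 300 kb lower, and 308 calls were shared with the unblocked fit. The labels do not say whether equal numbers pair the livers, and so few libraries cannot decide it. Correlations of same-numbered deviations were 0.0581, -0.5594, -0.0131, -0.4726 and 0.0395. No cisplatin library correlated best with its own number. Of 112 genes named, 98 kept their side of the threshold in each refit; the block alone ended the call of Tgm1, Clec2h, Odc1, Plin4, Cpt1b, Acsl1, Cebpd, Rps13, Rpl10 and Exoc4, and 0 reversed. The hour of sampling and food intake are not given.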
